A study of Homo sapiens with 30 samples.

Results

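IGFBP1 and 9 further genes of the insulin-like growth factor (IGF) family were followed through 30 RNA libraries of HepG2, a liver tumor cell line that the labels call hepatocellular carcinoma and the methods call hepatoblastoma. The 10 genes were chosen by symbol from the 60107 genes of the count table, and IGFBP1 was put at their head because of its high level with a miR-512-3p mimic, so that this rise is described here and not tested. They are the secreted binding proteins IGFBP1, IGFBP2, IGFBP3, IGFBP4 and IGFBP6, the ligand IGF2, the receptors IGF1R, INSR and IGF2R, and the receptor adaptor IRS2. Every culture was transfected with lipofection 24 h after plating and received Sorafenib, an oral multikinase inhibitor used in advanced liver cancer, at 10 µM or its solvent DMSO 24 h later. Cells lysed after 6 h of treatment carried an inhibitor of miR-200c-3p (I200c) or the inhibitor control (IC). Cells lysed after 24 h carried a mimic of miR-222-5p (M222), a mimic of miR-512-3p (M512) or the mimic control (MC). Each of the 5 transfections was combined with DMSO and with Sorafenib, which gave 10 groups of 3 libraries from 1 cell line. Time and kind of oligonucleotide changed together between IC and MC and cannot be told apart.

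IGF1 and IGF2 are small peptides that resemble insulin and act through the tyrosine kinase receptors IGF1R and INSR, which recruit IRS adaptors and switch on PI3 kinase and AKT. Most IGF outside cells is held by the IGFBP family, while IGF2R, the mannose 6-phosphate receptor, carries IGF2 to lysosomes. The liver is the main source of circulating IGFBP1, whose transcription is lowered by insulin and raised by fasting, glucocorticoids, hypoxia and amino acid shortage, and IGF2 is a fetal liver transcript that liver tumors often keep.

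The mature sequences of the 3 microRNAs that were raised or blocked come from RefSeq on GRCh38.p14, and their seed, bases 2 to 8, is in capitals because it sets which transcripts a microRNA can pair with. The 3 seeds differ. The sequence of the synthetic inhibitor is not given in the sources used here.
hsa-miR-512-3p (chr19:53666729-53666750 and chr19:53669213-53669234, plus strand): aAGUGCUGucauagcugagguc
hsa-miR-222-5p (chrX:45747073-45747094, minus strand): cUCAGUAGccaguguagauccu
hsa-miR-200c-3p (chr12:6963742-6963764, plus strand): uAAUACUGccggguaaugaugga

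The complement of each seed was searched on the transcript strand of the 3′ UTR of the canonical transcript in GENCODE 44, as CAGCACT for miR-512-3p, CTACTGA for miR-222-5p and CAGTATT for miR-200c-3p. These 7 letters occur in 19.6%, 9.21% and 16.1% of 19538 3′ UTRs. IGFBP1, whose 3′ UTR is 569 bases long, held none of the 3, and the same was found for IGFBP2, IGFBP3, IGFBP4, IGFBP6, IGF2 and IGF1R. INSR held 1 match to miR-512-3p, IGF2R held 1 match to each microRNA, and IRS2 held 2 matches to miR-512-3p and 1 to miR-200c-3p. Only matches to miR-512-3p in members detected in every library, INSR and IGF2R, are shown, in capitals. The IGF2R matches to the other microRNAs and the IRS2 matches are not shown. Whether any match is used was not tested.
INSR (chr19:7112858-7112887, minus strand, base 4180 of a 3′ UTR of 4791 bases): aaagaacaggtCAGCACTtttttttttcct
IGF2R (chr6:160106675-160106704, plus strand, base 1602 of a 3′ UTR of 6420 bases): cctttatgaggCAGCACTttcatttttctc

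The libraries were made with a 3′ end kit that reads 1 fragment per transcript, so levels are given as CPM, counts scaled to library size, with TMM factors over all 30 libraries, and can be set side by side between genes without a length term. Totals ran from 3938764 to 9657063 counts, and the limit that a count of 0 allows, 3 counts, was 0.311 to 0.762 CPM, for counting error only. Replicate libraries of a group correlated at r = 0.964 to 0.990 on the log scale across genes, with the lowest values in M512 with Sorafenib. Genes encoded in mitochondrial DNA took 17.5% to 26.8% of the counts, and 13252 to 16812 genes were detected per library. All 6 hepatocyte markers were high, with summed levels of 6242 to 15447 CPM, and the 3 fibroblast markers (COL1A2, DCN, LUM) were at 0 in every library. The 3 endothelial markers together stayed at or below 3.05 CPM, while the leukocyte list reached 309.4 CPM, almost all of it LYZ. PTPRC, on the same list, had at most 1 read in any library, and CD68 at most 90. The 3 libraries of a group are independent replicates by the methods. Fewer cells of a kind and less RNA per cell cannot be told apart in such bulk samples.

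In M512 with DMSO IGFBP1 was exceeded within the family by IGF2 alone, while elsewhere it was one of several members at moderate level. In M512 with DMSO its level was 565.0, 502.9 and 557.3 CPM (541.7 ± 33.9, SD, n = 3). In MC with DMSO it was 29.4, 49.9 and 26.9 CPM (35.4 ± 12.6). The M512 libraries therefore lay far above the MC libraries with no overlap, and the ratio of the means was 15.3. In M512 with Sorafenib it was 31.2, 41.2 and 66.0 CPM (46.1 ± 17.9), within the range of the control transfection. In MC with Sorafenib it was 22.5, 71.8 and 23.5 CPM (39.3 ± 28.2), and 1 library, replicate 2, carried most of that spread. In M222 the values were 28.8, 58.4 and 35.7 CPM with DMSO and 21.7, 42.5 and 23.9 CPM with Sorafenib, so that these groups overlapped with each other and with MC. In all 4 groups of MC and M222 the highest IGFBP1 value was that of replicate 2. These libraries had totals of 3941570 to 4939876 counts, the lowest of their groups, but the most genes detected, 16132 to 16334. The part of depth or of genes detected was not tested. The IGFBP1 count behind these levels was 140 to 4540 reads per library.

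At 6 h the IGFBP1 level was higher in DMSO than in Sorafenib with both transfections. IC with DMSO had 77.6, 72.8 and 102.1 CPM (84.2 ± 15.7), and IC with Sorafenib had 51.0, 55.7 and 20.3 CPM (42.3 ± 19.2). I200c with DMSO had 56.9, 67.1 and 83.2 CPM (69.1 ± 13.3), and I200c with Sorafenib had 19.7, 22.3 and 23.5 CPM (21.8 ± 1.95). Every Sorafenib library lay below every DMSO library of its transfection. Ordered by mean, the 10 groups ran from M512 with DMSO through IC with DMSO, I200c with DMSO, M512 with Sorafenib, IC with Sorafenib, M222 with DMSO, MC with Sorafenib, MC with DMSO and M222 with Sorafenib down to I200c with Sorafenib. M512 with DMSO stood 6.44 times above its neighbour in this order, without overlap, and all other neighbours overlapped, the widest gap among them being that between I200c with DMSO and M512 with Sorafenib. The mean of the top group was 24.8 times that of the lowest.

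**Figure D1:**
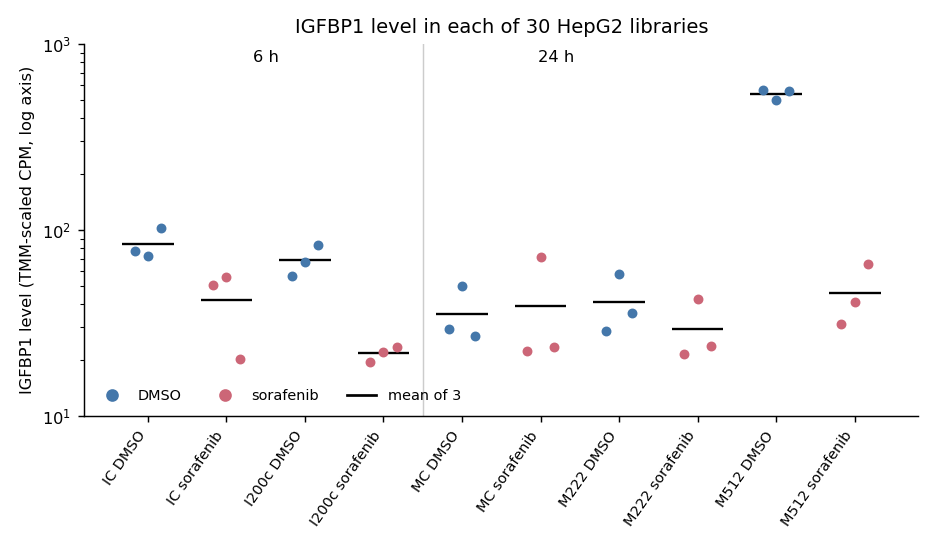
IGFBP1 level (TMM-scaled CPM, logarithmic axis) in each of 30 libraries, with points for libraries, bars for the mean of 3 and colors for DMSO and Sorafenib, 6 h groups on the left and 24 h groups on the right of the line. The 3 libraries of M512 with DMSO sit between 502.9 and 565.0 CPM, above the other 27 libraries, which lie between 19.7 and 102.1 CPM.

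Of the RNA of the 5 binding proteins among the 10 genes, IGFBP1 made up much in every group. IGFBP7, with at most 108 reads in any library, is not among the 10 and is not part of these sums. Among the summed CPM of IGFBP1, IGFBP2, IGFBP3, IGFBP4 and IGFBP6, IGFBP1 took 55.4% ± 6.08 in MC with DMSO and 91.9% ± 1.01 in M512 with DMSO (SD, n = 3). The smallest share was 31.9% ± 0.933, in I200c with Sorafenib. The summed level of the 5 genes was 63.1 ± 16.2 CPM in MC with DMSO and 589.8 ± 42.7 CPM in M512 with DMSO. IGFBP4, a binding protein that restrains IGF action and is cut by the protease PAPPA, came next with group means of 22.1 to 45.7 CPM, and it was the most abundant of the 5 in I200c with Sorafenib, at 38.9, 39.5 and 41.2 CPM. IGFBP6, which prefers IGF2, had group means of 1.61 to 5.89 CPM, and IGFBP2, an abundant binding protein of serum, 0.793 to 4.399 CPM. Single libraries of these low genes went down to 0 reads for IGFBP6 and 4 reads for IGFBP2. IGFBP3, the main IGF carrier of serum, was at 0 in 26 of 30 libraries, with 10 reads in all, found in 2 libraries of IC with DMSO and 2 of M512 with DMSO.

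IGF2 was the most abundant member in all 10 groups, with group means of 708.4 to 1176 CPM. Its spread within groups was wide, and M512 with Sorafenib held both extremes of the series, at 945.1, 2122 and 172.4 CPM (1080 ± 982). The library with the highest IGF2 level, M512 with Sorafenib replicate 2, also had the lowest IGF2R level of the series, at 28.9 CPM against 119.8 and 101.1 CPM in its replicates. In M512 with DMSO, in contrast, replicate 2 had the highest level of both genes, with IGF2 at 995.5, 1284 and 711.7 CPM and IGF2R at 118.9, 137.5 and 130.2 CPM. This pair was singled out after the values were seen. On its last exon IGF2 is overlapped on the same strand by INS-IGF2 and by 2 further annotated genes. INS-IGF2 and 1 other had 0 reads in the whole table. The third, which spans 1829 of the 4107 bases of that exon, was not among the genes counted. The effect of these overlaps on the IGF2 level was not tested. SYNM-AS1, antisense to the last exon of IGF1R, also had 0 reads. IGF1, the other ligand, was below the limit for testing.

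Among the receptors, IGF2R had group means of 83.3 to 139.7 CPM, INSR 46.2 to 94.6 CPM and IGF1R 24.8 to 42.6 CPM. INSR, the insulin receptor, was at 106.6, 90.9 and 80.6 CPM in MC with DMSO and at 93.2, 84.0 and 106.5 CPM in M512 with DMSO. It was at 70.4, 69.7 and 85.3 CPM in MC with Sorafenib and at 32.7, 51.1 and 54.7 CPM in M512 with Sorafenib, the lowest group of the 10. All 3 libraries of that group lay below all 27 others. IGF1R, the receptor for IGF1 and IGF2, was highest in MC with DMSO, at 38.6, 38.8 and 50.4 CPM, and lowest in M222 with DMSO, at 18.4, 23.2 and 32.6 CPM. IRS2, the main insulin receptor adaptor of liver, had 3 reads in all 30 libraries, all in M512 with DMSO replicate 2, and IRS1, the other adaptor, had means of 18.5 to 36.9 CPM.

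**Figure D2:**
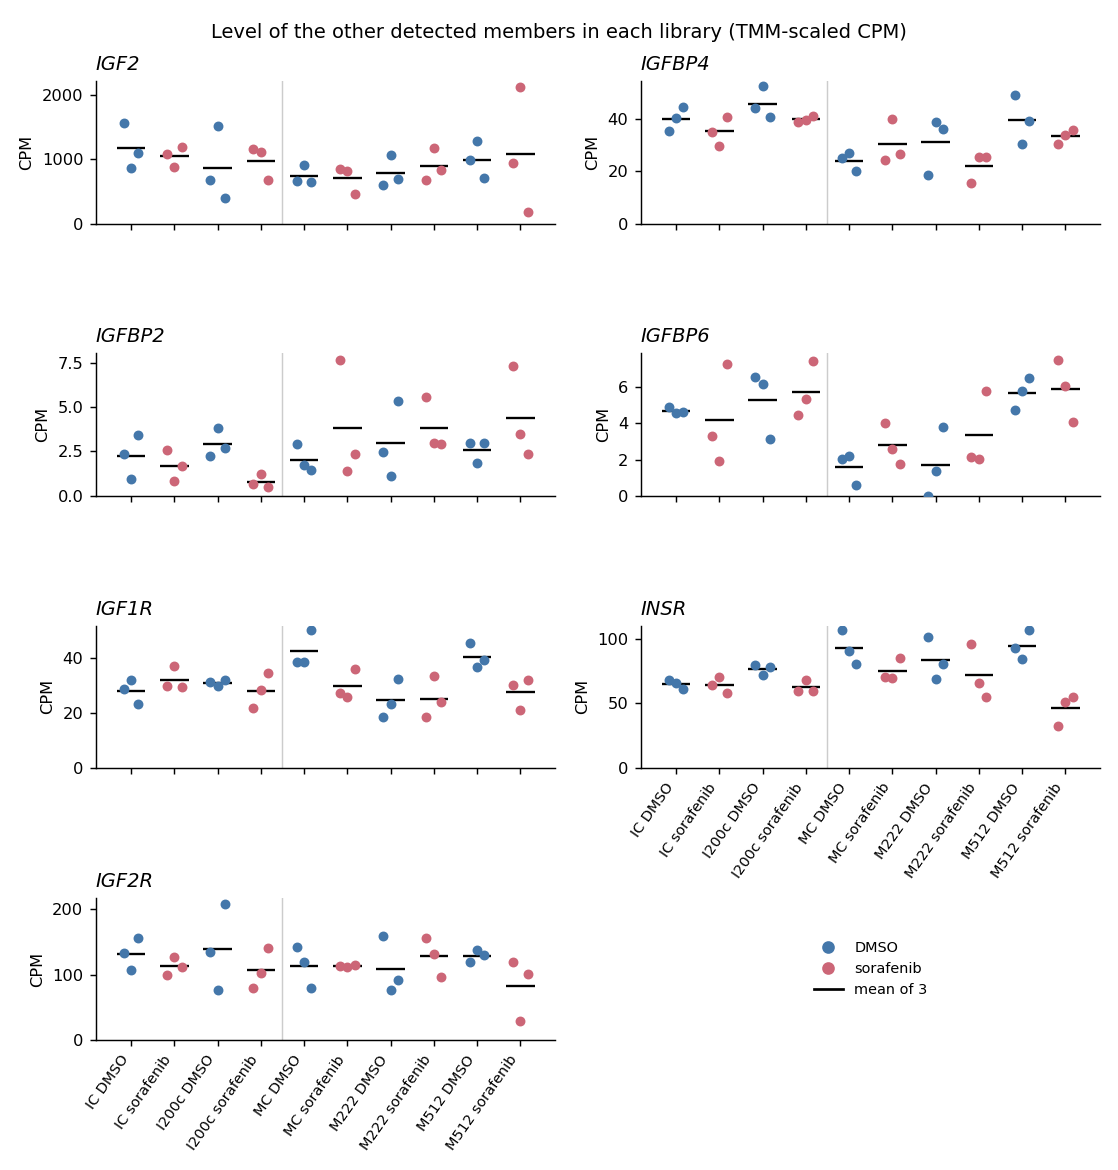
Level (TMM-scaled CPM, linear axes from 0) of the 7 other members with reads in most libraries, with points for libraries, bars for the mean of 3 and colors for DMSO and Sorafenib. IGF2 spans 172.4 to 2122 CPM within M512 with Sorafenib, and INSR is lowest in that group, at 32.7 to 54.7 CPM.

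The positions of the members on GRCh38 are chr7:45888360-45893660 (plus) for IGFBP1 and chr7:45912245-45921874 (minus) for its neighbour IGFBP3, chr2:216632828-216664436 (plus) for IGFBP2, chr17:40443450-40457725 (plus) for IGFBP4 and chr12:53097436-53102345 (plus) for IGFBP6. IGF2 lies at chr11:2129112-2158391 (minus), IGF1R at chr15:98648539-98964530 (plus), INSR at chr19:7112255-7294414 (minus), IGF2R at chr6:159969082-160113507 (plus) and IRS2 at chr13:109752695-109786583 (minus). IGFBP1 and IGFBP3 are adjacent on the same chromosome, and the levels of the pair in M512 with DMSO were 541.7 and 0.345 CPM.

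The response to Sorafenib at 6 h was tested within each transfection with edgeR's quasi-likelihood test, calling genes at a Benjamini-Hochberg adjusted p below 0.05 over all 12738 genes tested. IGFBP3 and IRS2 were too low to enter any test, which left 8 members. With the miR-200c-3p inhibitor, 1 of 8 members was called, where 2.28% of all genes were. That member was IGFBP1, which fell by 1.67 on the log2 scale (SE 0.27, adjusted p = 0.00144), a ratio of means of 3.17. The call held under all 6 alternative settings and in all 6 fits that left out 1 library, with adjusted p of at most 0.0156. IGFBP2 in the same comparison had a log2 fold change of -1.86 (SE 0.72, adjusted p = 0.205) and INSR one of -0.31 (SE 0.15, adjusted p = 0.316). For both genes the libraries with Sorafenib lay below those with DMSO without passing the threshold. How often libraries separated in this way over all genes is not given for this or any other comparison. An unadjusted p below 0.05 was found for 1945 of 12738 genes and for 3 members, these 2 and IGFBP1. The other 5 members had log2 fold changes of -0.39 to 0.17.

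With the inhibitor control, none of the 8 members was called by edgeR or DESeq2, where 0.0393% of all genes were by edgeR. An unadjusted p below 0.05 was found for 481 of 12738 genes and for 1 member. That was again IGFBP1, with a log2 fold change of -1.0002 (SE 0.27, unadjusted p = 0.00127, adjusted p = 0.355). Without the filter on low counts its adjusted p was 0.000371. The other 7 members had log2 fold changes of -0.39 to 0.19. The interaction term for IGFBP1, its response with the inhibitor minus that with the control, was -0.67 (SE 0.38, unadjusted p = 0.0881, adjusted p = 0.9997), so the 2 responses were not separated. No member was called for that interaction by edgeR or DESeq2, where 0% of all genes were. None had an unadjusted p below 0.05, against 413 of 12738 genes. The median log2 fold change of the 8 members was -0.26 with the inhibitor and -0.18 with the control, against 0.0046 and 0.0017 over all genes tested.

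At 24 h the same comparison was made over 13244 genes, and IGFBP1 in MC and M512 is described without a test. In MC, IGFBP1 had a log2 fold change of 0.16 (SE 0.37), which was -0.59 without MC with Sorafenib replicate 2. In M512 the log2 fold change was -3.55 (SE 0.40), which took the mean from 541.7 to 46.1 CPM. In M222, where it was tested, IGFBP1 had a log2 fold change of -0.49 (SE 0.38, adjusted p = 0.520) with overlapping libraries, although the value with Sorafenib was below that with DMSO in each of 3 same-numbered pairs.

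INSR was the 1 of 7 tested members called in M512, where 9.96% of all genes were called. It fell by 1.03 on the log2 scale (SE 0.23, adjusted p = 0.00534), to a mean 2.05 times below that with DMSO, and the libraries did not overlap. Without M512 with Sorafenib replicate 1, its lowest library, the log2 fold change was -0.82 with an adjusted p of 0.0509. INSR had log2 fold changes of -0.30 (SE 0.23, adjusted p = 0.545) in MC and -0.21 (SE 0.23, adjusted p = 0.665) in M222. The interaction that compares the INSR response in M512 with that in MC was -0.73 (SE 0.33, unadjusted p = 0.0337, adjusted p = 0.965), so a larger fall in M512 was not established. The libraries of M512 with Sorafenib were uneven, with mitochondrial shares of 24.2%, 24.2% and 17.5% and 13656, 13866 and 16582 genes detected, against shares of 19.7% to 20.2% in M512 with DMSO. Genes detected ran from 13394 to 16132 in MC with Sorafenib and from 15171 to 16334 in MC with DMSO. In M222 they ran from 13698 to 16243 with DMSO and from 13252 to 16232 with Sorafenib. In M512 with DMSO they ran from 14641 to 16114. Without replicate 3 of M512 with Sorafenib, which stood apart, INSR had a log2 fold change of -1.16 (adjusted p = 0.00738) and IGFBP1 one of -3.89, described. The part of these library differences was not tested. The summed hepatocyte markers also differed between these groups, at 14164 to 15447 CPM in M512 with DMSO and 8129 to 9492 CPM in M512 with Sorafenib, and LYZ and the other leukocyte markers summed to 245.6 to 309.4 and 118.8 to 200.7 CPM. The part of either list in the INSR and IGFBP1 values was not tested. In MC the hepatocyte sums were 11476 to 12327 CPM with DMSO and 7772 to 9649 CPM with Sorafenib, and the leukocyte sums 100.1 to 138.9 and 102.1 to 157.6 CPM.

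None of the 7 tested members was called in MC, where 2.6% of all genes were, and none of 8 in M222, where 4.38% were. DESeq2 called none in either. No tested member had an unadjusted p below 0.05, against 2232 of 13244 genes in MC and 2531 in M222. IGF1R had a log2 fold change of -0.51 (SE 0.27, adjusted p = 0.347) in MC and -0.54 (SE 0.27, adjusted p = 0.221) in M512, with no overlap between libraries in either, and 0.02 (SE 0.27, adjusted p = 0.977) in M222, whose DMSO level was the lowest of the 10 groups. IGF2R had a log2 fold change of -0.62 (SE 0.34, adjusted p = 0.270) in M512 and was within 0.22 of no change in MC and M222. IGF2 stayed within 0.18 on the log2 scale in all 5 Sorafenib comparisons, with SE of 0.32 to 0.47. IGFBP2 had values of 0.35 to 0.91 at 24 h with SE of 0.76 to 0.77, and IGFBP6 0.06 to 0.98 with SE of 0.84 to 0.90. The fits could therefore not place these low genes on either side of no change.

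**Figure D3:**
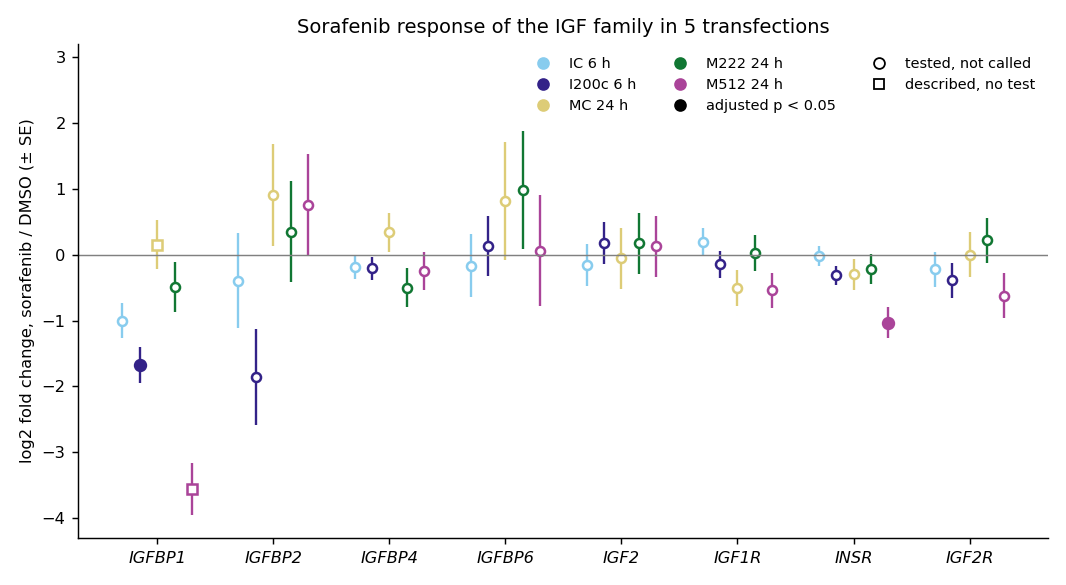
Log2 fold change of Sorafenib against DMSO (vertical axis, ± SE) for 8 members in 5 transfections, with filled circles for an adjusted p below 0.05, open circles for tested but not called, and squares for IGFBP1 values described without a test. The filled points are IGFBP1 in I200c at -1.67 and INSR in M512 at -1.03.

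The mimics and the inhibitor were then set against their controls, separately in DMSO and in Sorafenib. For M512 against MC in DMSO, in which IGFBP1 was noted, the log2 fold changes are given as a description. IGFBP1 had 3.93 (SE 0.40), which ranked 12 of 13244 genes from the top. IGFBP6 had 1.81 (SE 0.90), with 4.73, 5.79 and 6.52 CPM in M512 and 2.04, 2.21 and 0.579 CPM in MC. IGFBP4 had 0.70 (SE 0.29), with 48.9, 30.1 and 39.2 CPM in M512 and 24.9, 27.0 and 20.1 CPM in MC. For IGFBP1, IGFBP6 and IGFBP4 the libraries of the groups did not overlap. How often this occurred over all genes was not counted, so it is not read as a trait of binding proteins. IGF2 had 0.42 (SE 0.47), IGFBP2 0.33 (SE 0.78), IGF2R 0.16 (SE 0.34), INSR 0.01 (SE 0.23) and IGF1R -0.08 (SE 0.27), all with overlapping libraries. The median over the 8 fitted members was 0.37, against -0.01 over all genes. The marker lists also differed without overlap, with hepatocyte sums of 14164 to 15447 CPM in M512 and 11476 to 12327 CPM in MC and leukocyte sums, mostly LYZ, of 245.6 to 309.4 and 100.1 to 138.9 CPM, and their part in these values was not tested.

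In Sorafenib the 8 members were tested. IGFBP1 had a log2 fold change of 0.22 for M512 against MC (SE 0.37, adjusted p = 0.877), and its libraries overlapped. It was 1.004 without MC with Sorafenib replicate 2, with an adjusted p of 0.271. No member was called by edgeR or DESeq2, where 0.355% of all genes were by edgeR. An unadjusted p below 0.05 was found for 1465 of 13244 genes and for 1 member. That was INSR at -0.72 (SE 0.23, unadjusted p = 0.0049, adjusted p = 0.192), with all M512 libraries below all MC libraries. IGF2R had -0.46 (SE 0.34, adjusted p = 0.666) and IGFBP6 1.05 (SE 0.86, adjusted p = 0.709). The interaction of M512 and Sorafenib was -3.71 for IGFBP1 (SE 0.53, described), or -2.94 without MC with Sorafenib replicate 2. None of the 7 tested members was called for this interaction by edgeR or DESeq2, where 0.00755% of all genes were. An unadjusted p below 0.05 was found for 667 of 13244 genes and, of the members, for INSR alone. These comparisons share the MC libraries with those of M222.

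With the miR-222-5p mimic none of 7 tested members in DMSO and none of 8 in Sorafenib was called by edgeR or DESeq2, and 0% of all genes were in either. IGFBP1 had 0.21 in DMSO (SE 0.37, described) and -0.44 in Sorafenib (SE 0.38, adjusted p = 0.953). The 1 member with an unadjusted p below 0.05 was IGF1R in DMSO, at -0.79 (SE 0.27, unadjusted p = 0.0073, adjusted p = 0.637), with 18.4 to 32.6 CPM in M222 and 38.6 to 50.4 CPM in MC. In Sorafenib IGF1R had -0.26 (SE 0.27, adjusted p = 0.963). Over all 13244 genes, 737 had an unadjusted p below 0.05 in DMSO and 800 in Sorafenib. None of 7 members was called for the interaction of M222 and Sorafenib by edgeR or DESeq2, where 0% of all genes were. None had an unadjusted p below 0.05, against 260 of 13244 genes.

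**Figure D4:**
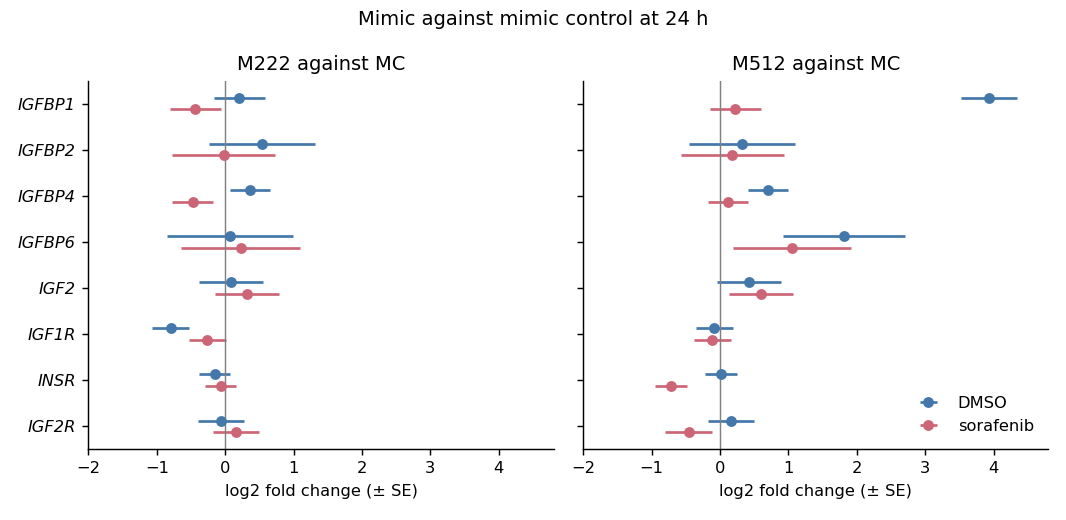
Log2 fold change of M222 (left) and M512 (right) against MC (horizontal axis, ± SE) for 8 members at 24 h, in DMSO and in Sorafenib. IGFBP1 stands at 3.93 for M512 in DMSO and at 0.22 for M512 in Sorafenib, and no tested value in this plot passed the threshold.

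The miR-200c-3p inhibitor against its control gave no called member among 8 by edgeR or DESeq2, in DMSO, where 0.0157% of all genes were called, or in Sorafenib, where 0% were. In DMSO IGFBP1 had -0.27 (SE 0.26, adjusted p = 0.986) and no member had an unadjusted p below 0.05, against 667 of 12738 genes. In Sorafenib IGFBP1 had -0.94 (SE 0.27, unadjusted p = 0.0025, adjusted p = 0.9997), and its 3 inhibitor libraries at 19.7 to 23.5 CPM overlapped with IC replicate 3 at 20.3 CPM. Without that library the log2 fold change was -1.27 with an adjusted p of 0.0389. IGF2R had 0.10 in DMSO and -0.06 in Sorafenib, both with SE of 0.27.

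Between the controls in DMSO, MC at 24 h against IC at 6 h, 12500 genes were tested and 0.528% called, none of them among the 7 tested members by edgeR. An unadjusted p below 0.05 was found for 1973 of the 12500 genes and for 5 members. These 5 had log2 fold changes of -1.54 for IGFBP6 (SE 0.65), -0.71 for IGFBP4 (SE 0.22), -0.64 for IGF2 (SE 0.23), 0.64 for IGF1R (SE 0.21) and 0.54 for INSR (SE 0.16), and adjusted p of 0.118 to 0.252. IGF2, IGFBP4 and IGFBP6 thus had lower values in MC, and the kinase receptors IGF1R and INSR had higher ones, none past the threshold. DESeq2 called INSR, with an adjusted p of 0.0469. IGFBP1 had -1.23 (SE 0.41, described), from 84.2 to 35.4 CPM. For the interaction of time and Sorafenib in these controls, none of 7 members was called by edgeR or DESeq2, where 0.216% of all genes were. An unadjusted p below 0.05 was found for 1709 of 12500 genes and, of the members, for IGF1R alone (log2 difference -0.73, SE 0.30, adjusted p = 0.287). IGFBP1 had 1.13 (SE 0.57, described), or 0.38 without MC with Sorafenib replicate 2.

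The family was set beside 77 further genes of the pathway, in lists of ligands and proteases, IGF2 mRNA-binding proteins, signalling proteins, FOXO factors with genes that insulin lowers in liver, and transcription factors that act on IGFBP1, of which 64 were high enough to test. In M512 with Sorafenib against DMSO, 10 of the 64 were called higher and 7 lower, where 9.96% of all genes were called, 707 higher and 612 lower of 13244. The largest changes were those of ADAM9, a metalloprotease, at 2.29 (SE 0.41), PIK3R3, a PI3 kinase regulatory subunit, at -2.27 (SE 0.70), TRIB3, a pseudokinase that binds AKT, at 1.85 (SE 0.26), PPARA, the fasting-responsive nuclear receptor, at -1.69 (SE 0.31), and HNF4A, a hepatocyte nuclear receptor, at -1.40 (SE 0.22). Adjusted p for these 5 were 0.000718, 0.0402, 4.85e-05, 0.00103 and 0.000145. Among the rest, named after their values were seen, the adaptor IRS1 (-0.95, SE 0.24) and PIK3R1 (-0.87, SE 0.25) were called lower. The signalling list as a whole had 3 genes called lower (PIK3R3, IRS1, PIK3R1) and 2 higher (TRIB3, GRB10) of 37 tested, with a median log2 fold change of 0.059 against -0.030 over all genes. Of 11 tested transcription factors known to act on IGFBP1, 5 were called higher and 2 lower. The higher ones were FOXO1 (1.13, SE 0.32), FOXO3 (1.11, SE 0.24), ATF4 (1.18, SE 0.24), AHR (1.13, SE 0.23) and NR3C1 (0.79, SE 0.20). PPARA and HNF4A were the lower ones. The part of these factors in the IGFBP1 level was not tested. IGF2BP1 (-0.85, SE 0.20) and IGF2BP3 (-0.79, SE 0.24), which bind IGF2 mRNA, were called lower, among the 612 genes lower in this comparison.

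In MC, 5 of the 64 genes were called higher with Sorafenib at 24 h and none lower, where 2.6% of all genes were called, 239 higher and 105 lower. They were TRIB3 at 1.69 (SE 0.26), ADAM9 at 1.60 (SE 0.40), GRB10, an adaptor that inhibits INSR and IGF1R, at 1.48 (SE 0.38), STC2, an inhibitor of PAPPA, at 1.35 (SE 0.25), and TRIB1 at 1.23 (SE 0.24). In M222, where 4.38% of all genes were called, TRIB3 (1.79, SE 0.26), STC2 (1.61, SE 0.25), FOXO3 (1.07, SE 0.24) and ATF4, the amino acid stress factor (0.94, SE 0.24), were called higher and HNF4A (-0.86, SE 0.22) lower. TRIB3 and STC2 thus rose at 24 h in all 3 transfections. At 6 h the only called gene of the 64 was PHLPP1, an AKT phosphatase, at 0.82 (SE 0.18, adjusted p = 0.0193) in I200c, where 2.28% of all genes were called. In IC edgeR called none of the 64, and 4 had an unadjusted p below 0.05, against 481 of 12738 genes tested. Under Sorafenib PPARA was lower in M512 than in MC (-1.72, SE 0.32, adjusted p = 0.0100), the 1 called gene of the 64 there, where 0.355% of all genes were called. Between the controls, where 0.528% of all genes were called, PPARA was higher (1.05, SE 0.22) and TRIB1 lower (-0.997, SE 0.20) in MC, and TRIB1 had the 1 called interaction of time and Sorafenib (1.61, SE 0.28), where 0.216% of all genes were called. In the remaining comparisons, I200c against IC and M222 against MC in either treatment and the interactions of Sorafenib with each transfection, edgeR called none of the 64. An unadjusted p below 0.05 was found for 1 to 6 of them, and for 260 to 800 of the 12738 or 13244 genes tested.

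PCK1 and G6PC1, the gluconeogenic enzymes that insulin lowers through FOXO1 as it does IGFBP1, were highest in M512 with DMSO and were singled out after their values were seen. PCK1 was at 13.8, 7.16 and 9.35 CPM there, against 4.07, 0.983 and 3.62 CPM in MC with DMSO and 3.27, 2.15 and 2.99 CPM in M512 with Sorafenib. G6PC1 was at 3.24, 0.914 and 2.27 CPM in M512 with DMSO, at most 0.724 CPM in MC with DMSO and 0 in M512 with Sorafenib, too low to be tested. For PCK1 the log2 fold change was 1.75 (SE 0.65) for M512 against MC in DMSO and -1.84 (SE 0.66) for Sorafenib against DMSO in M512. Both values are described without a test, because PCK1 was picked for its level in M512 with DMSO. The list that holds PCK1 and G6PC1 did not stand out as a whole in M512 against MC in DMSO, with a median log2 fold change of 0.0094 over its 11 fitted genes against -0.012 over all genes.

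The 5 genes whose pattern was most like that of IGFBP1 over the 18 libraries of 24 h were NDRG1 (Pearson r = 0.945), HAL (0.932), ARG1 (0.926), ORMDL3 (0.902) and LOX (0.902), on log2(CPM + 1) values. NDRG1 is a hypoxia and differentiation gene, HAL breaks down histidine, ARG1 is the last enzyme of the urea cycle, ORMDL3 restrains sphingolipid synthesis and LOX crosslinks collagen. Among the 24 h groups all 5 had their highest mean in M512 with DMSO, which picking them by likeness to IGFBP1 made likely. NDRG1 was at 129.4, 106.4 and 115.7 CPM there, against 38.9, 36.1 and 40.4 CPM in MC with DMSO. HAL and ARG1 were low genes, with means of 3.91 and 3.17 CPM in M512 with DMSO. LOX had a mean of 9.64 CPM there and 0.591 CPM in MC with DMSO. Without the 3 libraries of M512 with DMSO the correlations were 0.329 to 0.493 over 15 libraries, so the likeness rested on that group. Within the family the correlation with IGFBP1 was highest for IGFBP4, at 0.641, and it lay between -0.273 and 0.427 for the other 6 members. All these libraries share the group structure, and the correlations are descriptions.

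**Figure D5:**
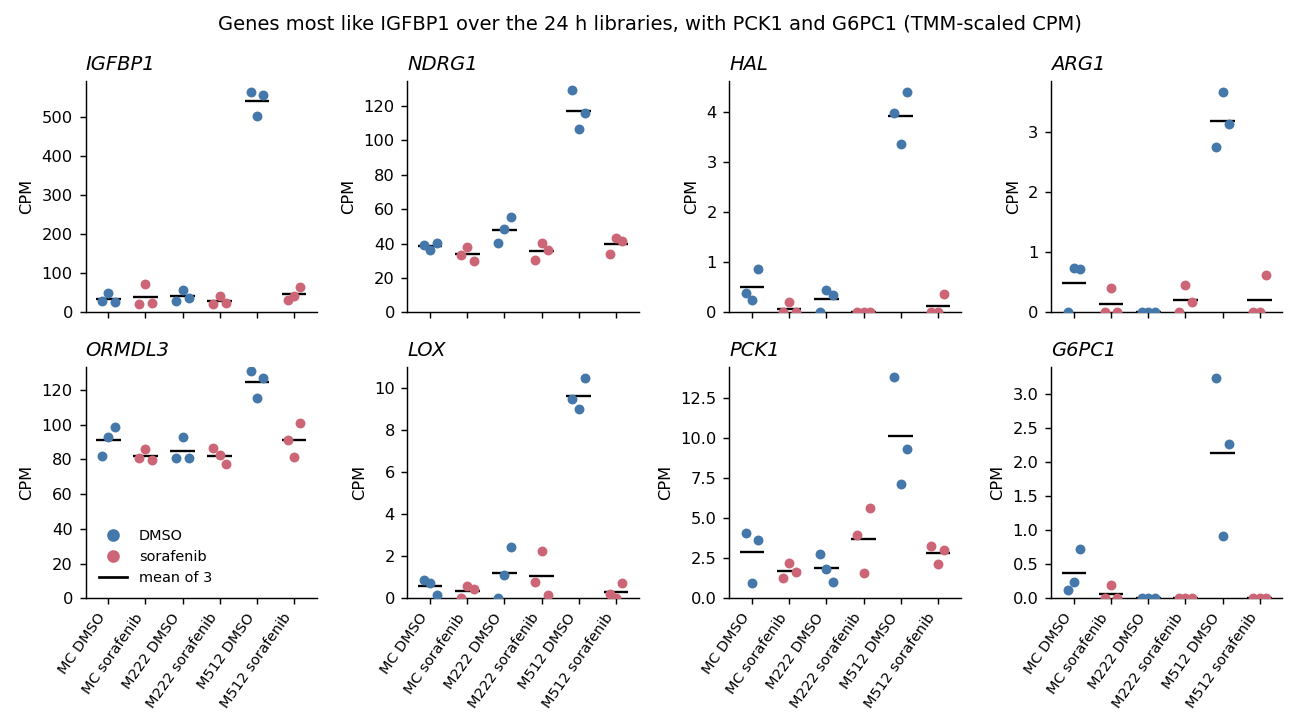
Level (TMM-scaled CPM, linear axes from 0) of IGFBP1, the 5 genes most correlated with it, PCK1 and G6PC1 in the 18 libraries of 24 h, with points for libraries, bars for the mean of 3 and colors for DMSO and Sorafenib. All 8 genes have their highest mean in M512 with DMSO, 541.7 CPM for IGFBP1 and 117.2 CPM for NDRG1. This follows from how they were picked, by their level in that group or by likeness to IGFBP1, and is no separate result.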

How the data were processed

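Total RNA of HepG2 cells was sequenced as QuantSeq 3′ forward libraries. Per the labels and the methods, the authors trimmed the reads, aligned them to GRCh38 with STAR and counted them per gene with HTSeq; the strand setting is not given in the sources used here. The deposited table holds raw counts per Ensembl gene, without normalization, in 30 columns, of which 92 lines name no gene (3 counts) and were left out. A second deposited table, of values normalized within each transfection, was not used.

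Groups came from the labels. Counts were fitted with edgeR 4.0.16 (R 4.3.3; TMM factors, filterByExpr, quasi-likelihood F test) in 3 fits: the 12 libraries of 6 h, the 18 of 24 h and the 12 of both controls. SE is the log2 fold change over the square root of F. Genes were called at an adjusted p of 0.05. The step was tested on simulated data. DESeq2 1.42.0, other scalings, no filter, a replicate block, 1 fit of all libraries and leaving out each library were alternatives. All 10 members were described in each comparison, and of the other pathway genes up to 5 with the largest change per comparison; genes singled out otherwise are marked. Members, lists and tests were chosen with earlier results of these data known. IGFBP1 received no test in any comparison that used M512 or MC with DMSO.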

Additional observations from a re-analysis of the deposited data

How the results depend on the processing

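In the 15 tested comparisons, 113 tests of a member gave 2 calls, and neither call changed direction under any alternative run. The number of called members differed from the reported one in these cases. Without the filter on low counts it was 1 in place of 0 for Sorafenib in IC (IGFBP1), for I200c against IC in Sorafenib (IGFBP1) and for MC against IC in DMSO (IGF2). With DESeq2 it was 1 in place of 0 for MC against IC in DMSO (INSR). Leaving out 1 library at a time gave 0 to 1 for I200c against IC in Sorafenib and 0 to 1 for Sorafenib in M512, where INSR was lost without M512 with Sorafenib replicate 1. The cause was not tested. With a replicate block, the count was 1 for Sorafenib in I200c, 1 for Sorafenib in M512 and 0 elsewhere, as in the fit without it, and the replicate block changed no other call; deviations of same-numbered libraries correlated at -0.097 to 0.276 at 6 h and -0.148 to 0.233 at 24 h, so that not every pair was above 0.1 and the numbers were not taken as pairs. At 24 h, 12 of 45 same-numbered pairs (median 0.057) and 7 of 90 others (median -0.030) were above 0.1. With the replicate block IGFBP1 in M222 had a log2 fold change of -0.49 (adjusted p = 0.371). Of 456 alternative fold changes, 446 were rated the same. For tested values this meant the same side of the threshold, whatever their size, and for described values a move of less than 1 SE. Values that were not called could still move or change sign. IGFBP1 in M512 against MC in Sorafenib ran from -0.095 to 1.004, and in M222 against MC in Sorafenib from -0.75 to 0.35. Levels as CPM of total counts moved by more than 1 SD for 20 of 100 member and group means. IGFBP2, IGFBP3, IGFBP6, G6PC1 and IRS2 had few or no reads in some libraries, and the part of depth was not tested.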
